A study of Mus musculus with 15 samples.

Results

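The comparison described here sets NIH3T3 cells that carry induced RUNX1-ER against cells with the empty vector, when both have received the ligand 4-hydroxytamoxifen (4-OHT). Its members were chosen by sample title and comprise 2 induced RUNX1-ER arrays and 2 vector arrays with 4-OHT, 4 of the 15 arrays of the series. NIH3T3 is an immortalised mouse fibroblast line, and both sides had been transduced with the retroviral vector pBabe-puro, which held an inducible construct of human RUNX1 on one side and no insert on the other. Both were kept at confluence over 7 days and exposed to 4-OHT in 0.2% ethanol for 24 h, at a concentration that the labels give as 0.1 mM. The same pair of lines without 4-OHT, uninduced RUNX1-ER (2 arrays) and vector (2 arrays), served as a comparison on other arrays. The remaining 7 arrays hold lines with mouse Runx1, Runx2 or Runx3 (2 arrays each) or human RUNX1 (1 array), for which the labels do not say whether 4-OHT was in the ethanol. The titles number the arrays as biological replicates, but no label speaks of separate cultures or transductions. The p-values below rest on the scatter between replicates, pooled over the groups of the series and not taken from the 4 arrays alone. Part of that scatter may be technical, and 2 arrays a group limit the precision.

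RUNX1 is a DNA-binding transcription factor of the Runt family. With its partner CBFβ it binds a short core sequence in promoters and enhancers and either activates or represses the gene, depending on the cofactors it meets there. It is best known for blood formation and leukaemia, and its relatives RUNX2 and RUNX3 for bone and for neurons and lymphocytes. A protein fused to the ligand-binding domain of the oestrogen receptor is held inactive by chaperones until a ligand such as 4-OHT releases it, so that addition of the ligand starts the factor's activity while the line stays the same. Giving 4-OHT to both lines keeps ligand effects that are equal in both out of the difference between them. Ligand effects that differ between the lines remain in it, as do differences between the transduced lines that have nothing to do with induction. No line of the series carried the receptor domain without RUNX1.

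The inserted gene was looked for first. Esr1 encodes the oestrogen receptor whose ligand-binding domain such fusions carry, and its brightest probe set read 5.92 and 5.74 log2 units on the induced RUNX1-ER arrays, against 4.20 and 4.47 on the vector arrays with 4-OHT. The groups did not overlap, and the difference was 1.50 log2 units (SE 0.25, limma adjusted p = 0.00433). It missed the threshold without replicate 1 of induced RUNX1-ER (adjusted p = 0.0524). The other probe sets of Esr1 differed by −0.20 and 0.16 and did not pass. Mouse Runx1, whose probe sets were designed for a gene of another species than the insert, read 4.63 and 4.71 in induced RUNX1-ER, against 4.71 and 4.78 in vector cells with 4-OHT, and did not pass (log2 difference −0.08, limma adjusted p = 0.825). The other Runx1 probe sets ranged from −0.50 to 0.27 and did not pass. Runx3 and Cbfb, the partner gene, differed by 0.22 and 0.17 and did not pass either. No probe set bore the name Runx2. Of 15 measured Runx, partner and corepressor genes, 2 were higher (13.3%, beside 2.9% of all genes), Tle2 by 1.06 and Tle3 by 0.57. Both are corepressors of the Groucho family, and both calls were lost without any 1 of the 4 arrays.

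The arrays were alike in level, while some fibroblast markers differed between the lines. The median probe set lay between 3.72 and 3.74 log2 units on the 4 arrays. The 2 induced RUNX1-ER arrays were closer to each other (r = 0.997 across probe sets) than to any other array, while both vector arrays with 4-OHT were closest to replicate 2 of the vector without 4-OHT (r = 0.996 and 0.995, against 0.994 with each other). Across genes, the 2 replicates differed with an SD of 0.163 log2 units in induced RUNX1-ER and 0.220 in vector cells with 4-OHT. Fibroblast markers summed to 44380 and 46830 linear units in induced RUNX1-ER, against 46470 and 47600 in vector cells with 4-OHT. Their brightest gene, Col1a2, a chain of type I collagen, differed by 0.06 and did not pass. Of 11 such markers 1 was higher (9.09%, beside 2.9% of all genes) and 2 were lower (18.2%, beside 1.26%), Pdgfrb by 1.00, Pdgfra by −0.76 and Col3a1 by −0.42. None of 8 blood, 5 endothelial, 5 epithelial, 5 skeletal muscle, 3 fat and 3 nerve markers was called, and the endothelial ones Pecam1, Cdh5, Kdr, Tek and Emcn all lay under the array median. The brightest of these markers, Epcam, had a mean of 5.22 log2 units over the 4 arrays, so that all read low and changes could be missed. In RNA from a whole culture, fewer cells that express a gene and less RNA per cell cannot be told apart.

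Induced RUNX1-ER cells differed from vector cells with 4-OHT in 757 of 18193 genes (4.16%) at an adjusted p under 0.05 in limma. Of these, 528 (2.9% of all genes tested) were higher and 229 (1.26%) lower in induced RUNX1-ER, and 61 of the higher (0.335%) and 23 of the lower genes (0.126%) differed at least 2-fold. The median difference was 0.57 log2 units among the higher genes, −0.54 among the lower ones and 0.03 over all genes, so that most calls were small changes. Higher genes made up 69.7% of the calls, a share that came to 52.8% when the deposited values were quantile normalized again (358 higher, 320 lower). A fit to the 4 arrays alone, without the spread of the other groups, called 160 genes, 126 higher and 34 lower. Leaving out 1 array puts its group at 1 array, which by itself can lower the number of calls. How much it did so was not tested. The totals moved in each case. They were 287 without replicate 1 of induced RUNX1-ER and 328 without replicate 2 of it, 377 without replicate 2 of the vector with 4-OHT and 726 without replicate 1 of it, and of these 279, 297, 316 and 467 were among the 757.

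**Figure D1:**
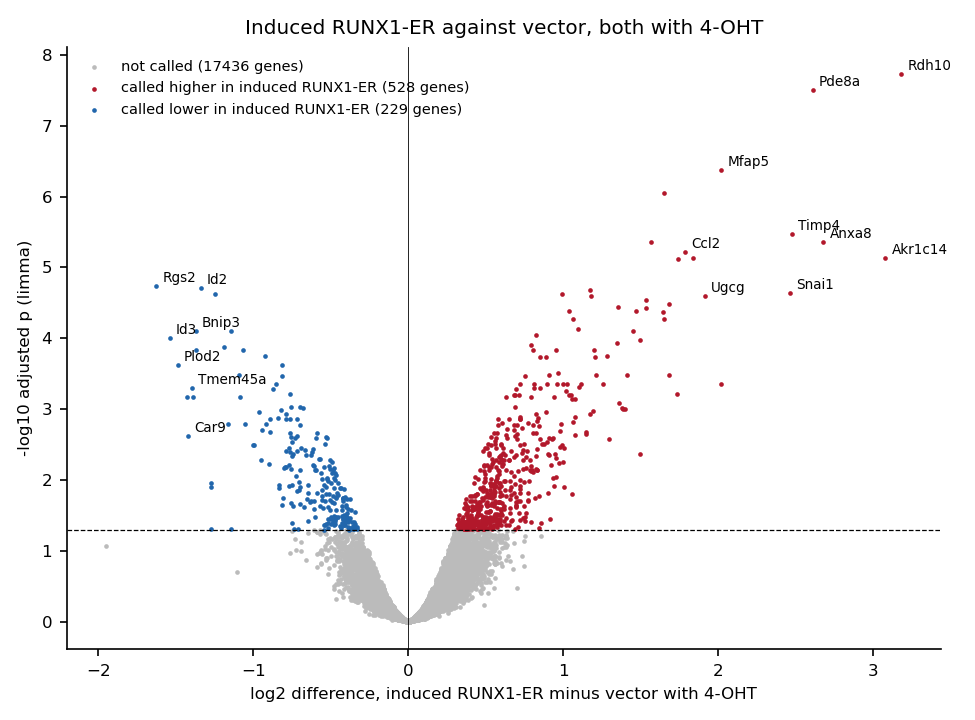
Difference between induced RUNX1-ER and vector, both with 4-OHT (x axis, log2 units, positive where induced RUNX1-ER is higher), against −log10 of the limma adjusted p (y axis) for 18193 genes. The 528 red points are called higher and the 229 blue points lower at the dashed line (adjusted p 0.05), and rises reach 3.18 (Rdh10) while the largest called fall is −1.62 (Rgs2).

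The largest rise was that of a gene of retinoid metabolism. Rdh10, which oxidises retinol to retinal on the way to retinoic acid, read 7.92 and 7.86 log2 units in induced RUNX1-ER, against 4.81 and 4.61 in vector cells with 4-OHT. Both induced arrays lay far above both vector arrays, a 9.09-fold difference (3.18 log2 units, SE 0.11, limma adjusted p = 1.89e-08), and the other probe set of Rdh10 rose by 2.67. Without 4-OHT the same lines read 5.61 and 5.72 in uninduced RUNX1-ER and 5.56 and 5.20 in vector cells. These values lie between the 2 groups with ligand, and the line difference without ligand was 0.28 (adjusted p = 0.554). Of 24 measured retinoid genes 2 were higher (8.33%, beside 2.9% of all genes). The other one was Rxra, a nuclear receptor partner of the retinoic acid receptors, by 0.59, and its call was lost without any 1 of the 4 arrays.

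Akr1c14, an enzyme of the aldo-keto reductase family that acts on steroids, read 7.22 and 7.44 in induced RUNX1-ER, against 4.40 and 4.09 in vector cells with 4-OHT. It stood 8.45-fold higher (SE 0.22 log2 units, adjusted p = 7.40e-06), from a low level. Of 34 measured aldo-keto reductase and glutathione genes 2 were higher (5.88%, beside 2.9% of all genes) and 1 lower (2.94%, beside 1.26%). The others were Mgst2 by 0.37 and Gstm1 by −0.40, both calls that leaving out 1 array could end. Pde8a, a phosphodiesterase that degrades cyclic AMP, read 6.39 on both induced arrays, against 3.63 and 3.93 in vector cells with 4-OHT. That probe set was 6.11-fold higher (SE 0.10 log2 units, adjusted p = 3.17e-08), with vector replicate 1 under the array median, but the other probe set of Pde8a differed by −0.01 and did not pass. Its relative Pde8b was lower by a log2 difference of −0.77, with its other probe set called too, and missed the threshold without replicate 2 of induced RUNX1-ER (adjusted p = 0.0575).

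Anxa8, a calcium-dependent phospholipid-binding annexin, read 7.95 and 7.58 in induced RUNX1-ER, against 5.42 and 4.76 in vector cells with 4-OHT (6.41-fold, SE 0.18 log2 units, adjusted p = 4.42e-06). Snai1, a zinc finger repressor of E-cadherin in epithelial-mesenchymal transition, read 8.47 and 8.50, against 6.43 and 5.61. The vector replicates of Snai1 lay 0.83 apart, yet both stayed over 2 log2 units below the induced arrays, and the gene was 5.53-fold higher (SE 0.20 log2 units, adjusted p = 2.30e-05). Of 13 measured Snail, Zeb and Twist family genes, Prrx1, a mesenchymal homeobox factor, was lower by a log2 difference of −0.82 (adjusted p = 0.00024) and the other 11 did not pass. The share was 7.69% each way, beside 2.9% higher and 1.26% lower of all genes.

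Among the remaining large rises, Ugcg makes glucosylceramide, the base of the glycosphingolipids, and read 7.81 and 7.74 in induced RUNX1-ER, against 5.73 and 5.99 in vector cells with 4-OHT (3.77-fold, SE 0.16 log2 units, adjusted p = 2.57e-05). Its other probe sets differed by 0.04 to 2.39, and 2 of the 3 passed. St3gal5, which adds sialic acid to make the ganglioside GM3, rose by 0.52 (adjusted p = 0.00448). Wwp2, a ubiquitin ligase of the HECT type, rose 3.58-fold, with 1 of its 5 other probe sets called the same way. Smad6, an inhibitor of BMP signalling, read 6.12 and 6.28 in induced RUNX1-ER, against 4.50 and 4.52 in vector cells with 4-OHT (3.22-fold, SE 0.14 log2 units, adjusted p = 3.25e-05). Tbccd1, a centrosome-associated protein, rose 3.34-fold and read 5.80 and 5.90 in induced RUNX1-ER, against 4.03 and 4.18 in vector cells with 4-OHT. Of these, Ugcg, Wwp2, Smad6 and Tbccd1 were named among genes whose arrays do not overlap, which holds for 45.2% of all genes.

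**Figure D2:**
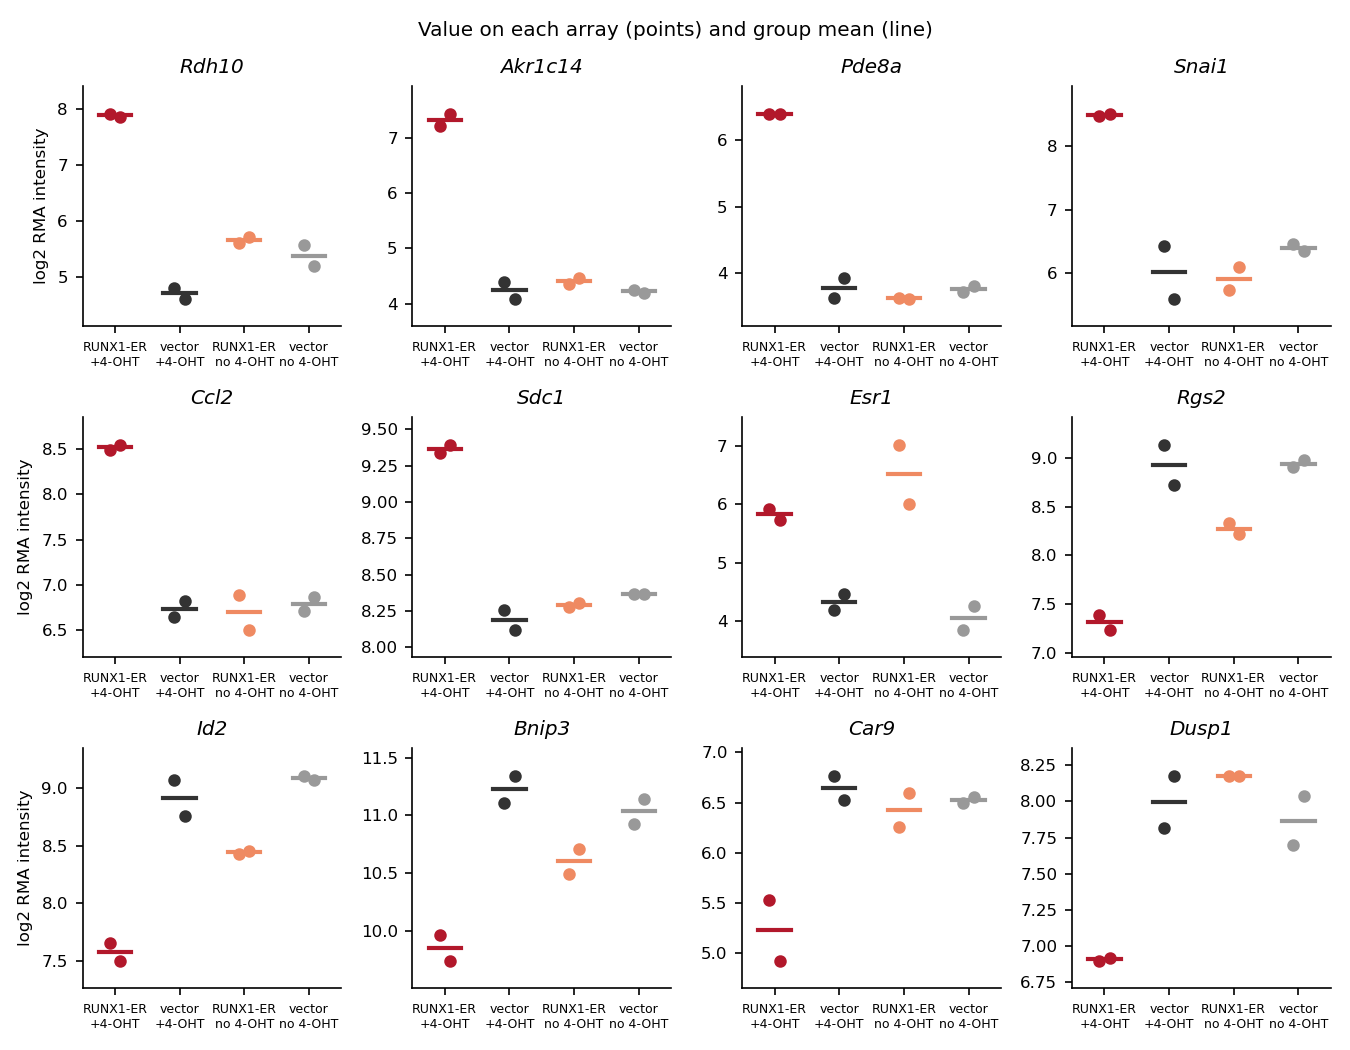
Log2 RMA intensity (y axis) on each array for 12 genes, with induced RUNX1-ER and vector with 4-OHT on the left of each panel and uninduced RUNX1-ER and vector without 4-OHT on the right. Points are arrays and lines group means (n = 2). For Rdh10, Akr1c14 and Pde8a the induced RUNX1-ER points stand above all others, and for Dusp1 below them, while Esr1 is high in both RUNX1-ER groups.

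The promoters of the leading genes were read to show which carry the short core that Runx proteins bind, TGTGGT or TGCGGT on either strand, within 250 bases before and 50 after the transcription start. Sequences are those of RefSeq on GRCm38.p6. Of the 15 largest rises 10 had a promoter entry and 3 held the core, Anxa8 (chr14:34085729-34086028, plus strand), Pde8a (chr7:81213015-81213314, plus strand) and Emilin1 (chr5:30913536-30913835, plus strand). Of the 15 largest falls 12 had an entry and 3 held it, Rgs2 (chr1:144004100-144004399, minus strand), Errfi1 and Car9. The core is in capitals, read on the reverse strand in Anxa8, and it begins at −15 from the start in Anxa8, −158 in Pde8a, 25 in Emilin1 and 7 in Rgs2.
Anxa8: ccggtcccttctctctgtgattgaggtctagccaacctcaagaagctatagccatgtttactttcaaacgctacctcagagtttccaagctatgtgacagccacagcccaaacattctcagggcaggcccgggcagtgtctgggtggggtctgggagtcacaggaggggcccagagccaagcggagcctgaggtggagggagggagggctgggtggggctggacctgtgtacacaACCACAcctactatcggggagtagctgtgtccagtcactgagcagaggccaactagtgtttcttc
Pde8a: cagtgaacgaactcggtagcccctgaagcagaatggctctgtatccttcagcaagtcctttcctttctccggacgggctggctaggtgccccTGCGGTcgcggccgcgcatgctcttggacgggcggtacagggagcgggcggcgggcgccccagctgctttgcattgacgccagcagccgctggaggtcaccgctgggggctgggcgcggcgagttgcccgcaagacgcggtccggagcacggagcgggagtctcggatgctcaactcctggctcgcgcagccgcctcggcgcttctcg
Emilin1: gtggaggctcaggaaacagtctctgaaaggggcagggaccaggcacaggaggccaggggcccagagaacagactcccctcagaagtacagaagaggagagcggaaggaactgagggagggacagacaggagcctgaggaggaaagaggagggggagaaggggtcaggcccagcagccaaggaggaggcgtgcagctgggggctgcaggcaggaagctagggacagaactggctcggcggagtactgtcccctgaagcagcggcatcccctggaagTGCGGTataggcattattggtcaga
Rgs2: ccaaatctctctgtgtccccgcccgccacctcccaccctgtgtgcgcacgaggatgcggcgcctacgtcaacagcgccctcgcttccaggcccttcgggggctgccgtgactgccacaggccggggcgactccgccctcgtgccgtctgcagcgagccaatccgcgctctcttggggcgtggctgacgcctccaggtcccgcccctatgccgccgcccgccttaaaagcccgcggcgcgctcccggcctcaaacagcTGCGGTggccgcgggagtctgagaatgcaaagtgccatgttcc
How the share of called genes with the core stood to that of all genes changed with the search. With 1 promoter a gene it occurred in 79 of 428 higher genes with a promoter (18.5%) and in 34 of 182 lower ones (18.7%), beside 3038 of 14368 over all measured genes (21.1%). Among genes changed at least 2-fold it occurred in 10 of 41 higher (24.4%) and 5 of 19 lower ones (26.3%), above the share over all. When every listed promoter of a gene was searched, it was found in 23.6% of higher and 26.4% of lower genes, beside 24.3% of all, so that the lower genes lay above all genes and not below them. A match is a description of these letters and not a bound site, and enhancers were not searched.

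The largest falls held regulators of G protein and growth factor signalling. Rgs2, a GTPase activator that shuts off G protein signals, read 7.38 and 7.24 in induced RUNX1-ER, against 9.14 and 8.73 in vector cells with 4-OHT. It was 3.08-fold lower (log2 difference −1.62, SE 0.13, limma adjusted p = 1.83e-05), on 3 of its 4 probe sets. Errfi1, a feedback inhibitor of EGF receptors, read 7.63 and 7.65, against 9.38 and 8.75 (2.69-fold lower, adjusted p = 0.000674). The 2 vector replicates were the more scattered group in both genes.

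Of 26 measured genes of the EGF axis and of feedback on the kinase ERK, 6 were lower (23.1%, beside 1.26% of all genes) and none higher, with a median of −0.15. In the Runx2 and Runx3 lines 6 and 15 were lower (beside 1.65% and 5.4% of all genes) and none higher. In the Runx1 line 2 were lower and 2 higher (beside 0.726% and 0.973%). The human RUNX1 line (1 array) had 7 lower and none higher (beside 5.14% and 2.19%). Dusp1, a phosphatase that switches off MAP kinases, read 6.90 and 6.91 in induced RUNX1-ER, against 7.82 and 8.18 in vector cells with 4-OHT (log2 difference −1.09, SE 0.12, adjusted p = 0.000331). Hbegf, an EGF receptor ligand, read 5.76 and 5.77, against 7.09 and 6.55 (−1.05, adjusted p = 0.00164), although its other probe set differed by −0.10 and did not pass. The receptor gene Erbb3 fell by 0.77 on the log2 scale (adjusted p = 0.000609). The other members called were Phlda1 at −0.81 and Dusp14 at −0.44, and leaving out 1 array could end either call (adjusted p up to 0.135 and 0.102).

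Immediate early genes, which growth factors switch on within minutes, split in direction. Of 28 measured, 3 were higher (10.7%, beside 2.9% of all genes) and 5 lower (17.9%, beside 1.26%). Nr4a2, an orphan nuclear receptor, read 6.97 and 6.72 in induced RUNX1-ER, against 5.41 and 4.92 in vector cells with 4-OHT (3.21-fold, adjusted p = 0.00033). Junb, an AP-1 subunit, rose 2.64-fold (adjusted p = 0.00101), and Myc rose by 0.55 (adjusted p = 0.0171). The zinc finger gene Egr1 was called at −1.27, Jun at −0.83, Fosl1 at −0.52, Maff at −0.64 and Btg1 at −0.34. These 5 calls and that of Myc were each lost without 3 or all 4 of the arrays in turn (largest adjusted p 0.0828 for Egr1, 0.0907 for Jun and 0.146 for Myc). Replicate 1 of the vector with 4-OHT was the high array for Egr1 (9.79, against 8.88 in replicate 2), for Egr2 (6.96, against 5.15) and for Nr4a1 (10.4, against 8.14). Nr4a1 read 7.30 and 7.39 in induced RUNX1-ER, and its difference of −1.95 (SE 0.58) did not pass (limma adjusted p = 0.0865).

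The Id genes, inhibitors of basic helix-loop-helix factors, had 2 of 4 measured members lower (50%, beside 1.26% of all genes). Id2 read 7.65 and 7.50 in induced RUNX1-ER, against 9.07 and 8.76 in vector cells with 4-OHT (2.53-fold lower, SE 0.11 log2 units, adjusted p = 1.95e-05). Id3 read 7.45 and 6.99, against 8.92 and 8.59 (2.91-fold lower, adjusted p = 9.94e-05). Id1 differed by −0.15 (adjusted p = 0.603) and Id4 by −0.52 (adjusted p = 0.213), and neither passed. Without ligand the line difference was −0.65 for Id2, −0.84 for Id3 and −1.18 for Id1, of which that of Id1 alone passed (adjusted p = 0.00271). Id2 stood at −1.68, −2.24, −2.71 and −2.28 in the Runx1, Runx2, Runx3 and human RUNX1 lines, against vector without 4-OHT. There 3, 3, 3 and 4 of the 4 Id genes were lower, beside 0.726%, 1.65%, 5.4% and 5.14% of all genes.

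Genes of glycolysis and of the response to low oxygen formed the group with the most falls. They serve glucose uptake, the breakdown of glucose to lactate and adaptation to hypoxia, and many are known targets of hypoxia-inducible factor (HIF). Of 30 measured, 13 were lower (43.3%, beside 1.26% of all genes) and 1 was higher, with a median difference of −0.37. Car9, a carbonic anhydrase at the cell surface, read 5.53 and 4.92 in induced RUNX1-ER, against 6.77 and 6.53 in vector cells with 4-OHT (log2 difference −1.42, SE 0.22, limma adjusted p = 0.00239). Bnip3, which marks mitochondria for removal, read 9.97 and 9.74, against 11.1 and 11.3 (−1.37, SE 0.13, adjusted p = 7.98e-05).

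Egln1 and Egln3, prolyl hydroxylases that sense oxygen and mark HIF for degradation, differed by −1.25 (adjusted p = 2.40e-05) and −1.39 (adjusted p = 0.000669). The other probe set of Egln3 differed by −0.60 and did not pass. Slc2a1, the glucose transporter GLUT1, read 10.2 and 10.3 in induced RUNX1-ER, against 11.4 and 11.3 in vector cells with 4-OHT (2.10-fold lower, SE 0.11 log2 units, adjusted p = 0.000148). Pdk1, which keeps pyruvate out of mitochondria, fell by 0.99 on the log2 scale, P4ha2 of collagen proline hydroxylation by 0.89, the phosphofructokinase Pfkp by 0.80, Mxi1 by 0.79 and Ndrg1 by 0.76. Pfkl, P4ha1 and the hexokinase Hk1 differed by −0.63, −0.63 and −0.56 and could lose the call with 1 array (adjusted p up to 0.182, 0.0609 and 0.113). Vegfa, an angiogenic growth factor and a classical HIF target, went the other way and rose by 0.79 (adjusted p = 0.00525, or 0.0611 without replicate 2 of the vector with 4-OHT). Hif1a itself differed by −0.04 (adjusted p = 0.904). Leaving out 1 of the 4 arrays left 10 to 13 members lower, and a fit to the 4 arrays alone left 5.

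Further genes with known links to collagen and protein folding under low oxygen fell beside them. Plod2, which hydroxylates collagen lysines, read 6.62 and 6.48 in induced RUNX1-ER, against 8.04 and 8.03 in vector cells with 4-OHT (2.80-fold lower, adjusted p = 0.00024). Ero1a, an oxidase that drives disulphide formation, read 8.23 and 7.85, against 9.43 and 9.40 (2.59-fold lower, adjusted p = 0.000148). Both had been picked by size among all genes. None of 31 measured genes of the ATF4 and unfolded protein responses was called, and their median was −0.03. Of all genes 4.16% were called, a share at which few of 31 would be.

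**Figure D3:**
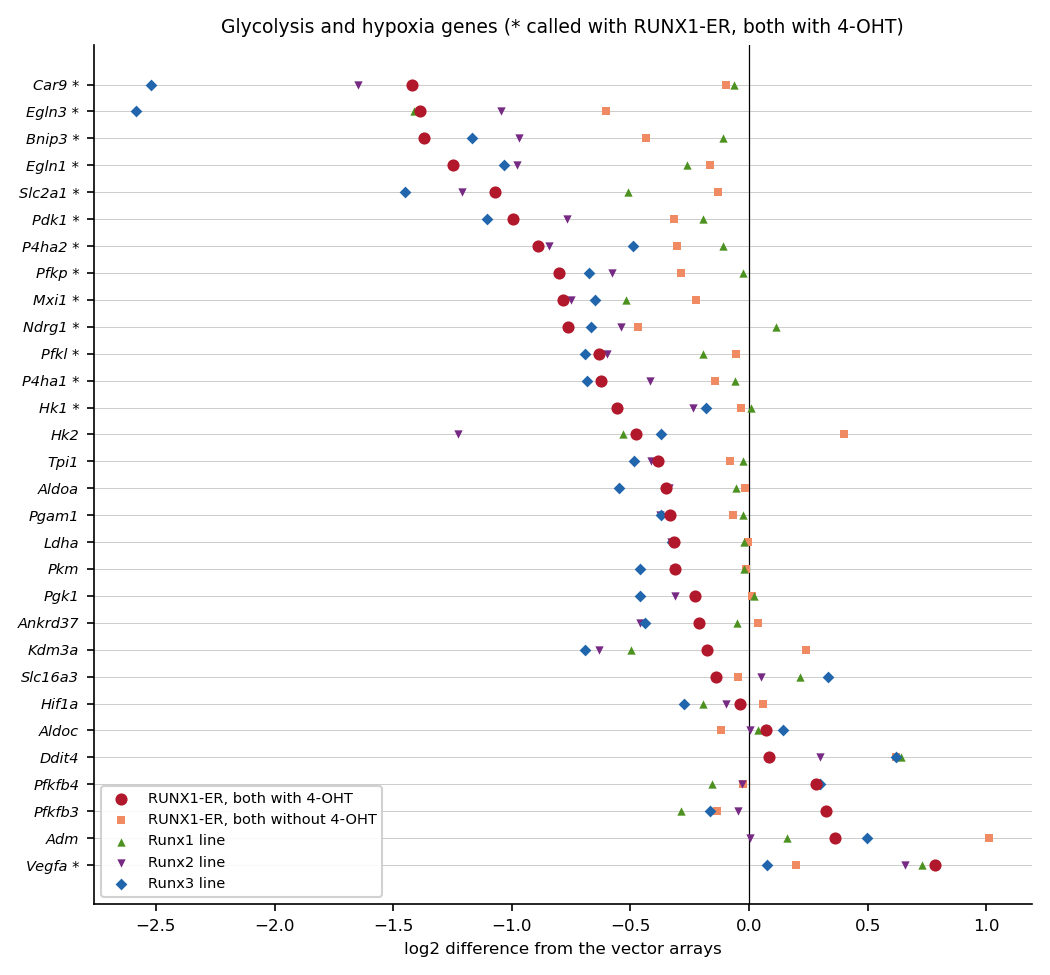
Log2 difference from the vector arrays (x axis) of 30 glycolysis and hypoxia genes, in induced RUNX1-ER (red circles, both sides with 4-OHT), uninduced RUNX1-ER (squares, both without), and the Runx1, Runx2 and Runx3 lines (triangles and diamonds, vector without 4-OHT). Stars mark the 14 genes called with induced RUNX1-ER, where Car9 stands at −1.42 and Vegfa at 0.79.

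The promoters of the lower members were searched for the core of the HIF response element, ACGTG or GCGTG on either strand, in the same window. It was found in 10 of 12 lower members with a promoter (83.3%), in 13 of 17 other members of the list (76.5%) and in 7992 of 14368 genes over all (55.6%). The share in the lower members lay near that in the rest of the list. Car9 (chr4:43506776-43507075, plus strand) held it once, on the reverse strand at −18, beside a Runx core at −171 that is not marked. Bnip3 (chr7:138909457-138909756, minus strand) held it 5 times, 2 of them overlapping in a palindrome. The cores are in capitals.
Car9: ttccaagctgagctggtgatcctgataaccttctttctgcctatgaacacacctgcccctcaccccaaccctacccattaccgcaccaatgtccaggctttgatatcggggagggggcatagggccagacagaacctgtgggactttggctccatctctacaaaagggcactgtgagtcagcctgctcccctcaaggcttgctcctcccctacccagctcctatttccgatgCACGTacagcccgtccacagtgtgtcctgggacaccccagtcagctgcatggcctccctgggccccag
Bnip3: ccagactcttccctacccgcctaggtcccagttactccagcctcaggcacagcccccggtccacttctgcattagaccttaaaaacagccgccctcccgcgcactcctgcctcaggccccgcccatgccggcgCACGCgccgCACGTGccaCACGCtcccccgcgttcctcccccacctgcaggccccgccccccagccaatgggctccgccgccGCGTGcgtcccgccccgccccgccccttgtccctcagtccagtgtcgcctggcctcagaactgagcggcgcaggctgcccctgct

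Cell adhesion and matrix genes, which the title of the series names as its subject, changed in part and in both directions. Sdc1, a cell surface heparan sulphate proteoglycan, read 9.33 and 9.39 in induced RUNX1-ER, against 8.26 and 8.12 in vector cells with 4-OHT (2.25-fold higher, SE 0.09 log2 units, adjusted p = 2.06e-05). Itgb5, an integrin subunit for vitronectin, read 8.77 and 8.65, against 7.88 and 7.54 (2.00-fold higher, adjusted p = 0.000442, with all 3 other probe sets called too). Itga6, a laminin receptor subunit, was lower by a log2 difference of −0.90, a call lost without replicate 2 of induced RUNX1-ER (adjusted p = 0.0661). The other 31 of 34 integrin, syndecan and focal adhesion genes did not pass (5.88% higher and 2.94% lower, beside 2.9% and 1.26% of all genes). Of 34 cadherin and immunoglobulin adhesion molecules 1 was higher (2.94%) and 3 were lower (8.82%). Cd34, a surface sialomucin, fell by 0.62 on the log2 scale (adjusted p = 0.00399). Nectin2 at −0.70, Pcdh19 at −0.43 and Ncam1 at 0.62 were calls that leaving out 1 array could end.

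Of 23 measured collagen chains 6 were higher (26.1%, beside 2.9% of all genes) and 1 lower (4.35%, beside 1.26%). Col5a1, of the collagen that regulates fibril diameter, read 10.8 and 10.7 in induced RUNX1-ER, against 9.46 and 9.32 in vector cells with 4-OHT (2.56-fold, SE 0.12 log2 units, adjusted p = 3.65e-05). The microfibrillar chains Col6a1 and Col6a2 rose by 0.68 and 0.79, Col27a1 of cartilage by 0.84 and Col18a1, the source of endostatin, by 0.74. Col16a1 at 0.45 and Col3a1 at −0.42 were called by a narrow margin (adjusted p = 0.0396 and 0.0361) and lost without any 1 of the 4 arrays.

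Elastic fibre genes moved both ways, with 2 of 19 higher (10.5%, beside 2.9% of all genes) and 4 lower (21.1%, beside 1.26%). Mfap5, a microfibril glycoprotein, read 8.02 and 7.99 in induced RUNX1-ER, against 5.92 and 6.05 in vector cells with 4-OHT (4.06-fold, adjusted p = 4.22e-07), and its other probe set rose by 0.83. Emilin1, of elastic fibres, read 8.32 and 8.03, against 6.79 and 6.26 (3.14-fold, adjusted p = 5.41e-05). The lower ones were Efemp1 at −0.51, Ltbp3 at −0.47, Fbln2 at −0.47 and Fbln5 at −0.41, none of which kept its call without each array in turn. Ccn4 and Ccn5, matricellular proteins of the CCN family, were the 2 called of 25 matricellular and basement membrane genes (8%). Ccn4 read 7.24 and 7.47 in induced RUNX1-ER, against 5.94 and 5.47 in vector cells with 4-OHT (3.13-fold, adjusted p = 4.32e-05). Ccn5, also known to respond to oestrogen, read 5.61 and 6.08, against 4.05 and 4.18 (3.33-fold, adjusted p = 0.000621). Aspn, which binds collagen and TGF-β, was the 1 of 10 small leucine-rich proteoglycans called, at −1.27, and missed the threshold without 3 of the 4 arrays (adjusted p up to 0.104).

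Of 31 proteinase and inhibitor genes 4 were higher (12.9%, beside 2.9% of all genes) and 2 lower (6.45%, beside 1.26%). Timp4, a tissue inhibitor of metalloproteinases, read 6.91 and 6.71 in induced RUNX1-ER, against 4.20 and 4.47 in vector cells with 4-OHT (5.56-fold, adjusted p = 3.36e-06, and 4.11 log2 units on its other probe set). Timp1 rose by 0.53 and Timp2 fell by 0.52 on the log2 scale, so that inhibitors of the same family moved in opposite directions. Adamts4, which cleaves aggrecan, rose 2.74-fold (adjusted p = 7.98e-05), Mmp2, a gelatinase, by 0.57 (adjusted p = 0.00258), and Adam17 was lower at the edge of the threshold.

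Survival genes are the other subject of the title. Of 37 measured members of the Bcl2 family, the death receptors and the caspases, 3 were higher (8.11%, beside 2.9% of all genes) and 1, Bnip3, lower (2.7%, beside 1.26%), with a median of −0.02. Bid, a proapoptotic member that death receptors activate, read 7.01 and 7.08 in induced RUNX1-ER, against 6.12 and 6.30 in vector cells with 4-OHT (1.79-fold, adjusted p = 0.00134). Casp6, an effector caspase, read 8.55 and 8.45, against 7.75 and 7.87 (1.61-fold, adjusted p = 0.000942). The other probe sets of Bid (−0.03 to 0.47) and of Casp6 (0.15) did not pass. Bcl2, which blocks apoptosis, was called at 0.57 but missed the threshold without 3 of the 4 arrays (adjusted p up to 0.232), and its other 4 probe sets lay between −0.06 and 0.27.

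Cell cycle genes that passed were higher. Of 28 D cyclin, CDK inhibitor and p53 target genes 3 were higher (10.7%, beside 2.9% of all genes) and none lower. Of 34 genes of S phase and mitosis 4 were higher (11.8%) and none lower, beside 1.26% lower of all genes. Ccnd1, cyclin D1, which starts the passage out of G1, read 9.18 and 9.07 in induced RUNX1-ER, against 8.06 and 7.99 in vector cells with 4-OHT (2.14-fold, SE 0.10 log2 units, adjusted p = 7.52e-05). Its other probe sets rose by 0.82 and 0.92. Cdkn2c, which inhibits the kinases that cyclin D drives, read 9.79 and 9.87, against 9.07 and 9.15 (1.65-fold, adjusted p = 0.000443). Cdt1, which licenses replication origins, rose by 0.56 (adjusted p = 0.0022), while Cdk6 (0.48), Mcm3 (0.59), Mcm7 (0.43) and Cdc6 (0.90) were calls that 1 array could end (adjusted p up to 0.128, 0.0528, 0.175 and 0.131). The groups did not overlap for any of these 7 genes, as they did not for 45.2% of all genes.

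Secreted signals and their receptors gave 4 higher (10.8%, beside 2.9% of all genes) and 2 lower (5.41%, beside 1.26%) of 37 chemokine and cytokine genes. Ccl2, which attracts monocytes, read 8.49 and 8.55 in induced RUNX1-ER, against 6.64 and 6.82 in vector cells with 4-OHT (3.45-fold, SE 0.12 log2 units, adjusted p = 6.04e-06). Its neighbour in the chemokine cluster, Ccl7, rose 2.83-fold, and Il18, an interferon-inducing cytokine, 1.99-fold (adjusted p = 0.000105 and 2.40e-05). Ccr7, a lymphocyte homing receptor, read 4.58 and 4.34, against 3.40 and 3.32, which lies under the array median, so that its 2.14-fold rise (adjusted p = 0.000491) is understated. Ackr3, an atypical chemokine receptor, at −0.48 and Osmr, the oncostatin M receptor, at −0.75 were lost without 1 or more arrays (adjusted p up to 0.263 and 0.0647). Of 22 acute phase and complement genes 5 were higher (22.7%) and 1 lower (4.55%). Masp1, a serine protease of the lectin pathway, rose by 1.07, Socs3, an inhibitor of cytokine signalling, by 0.89 and C1ra by 0.83. Cebpd, a transcription factor of the acute phase and of early fat cell differentiation, read 8.24 and 8.26 in induced RUNX1-ER, against 9.57 and 9.30 in vector cells with 4-OHT (2.28-fold lower, adjusted p = 0.000132, with its other probe set at −0.30 and not called).

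Guidance receptors and growth factor signalling had members that rose over 2-fold. Nrp2, a receptor for semaphorins and VEGF, read 8.10 and 8.20 in induced RUNX1-ER, against 6.61 and 6.63 in vector cells with 4-OHT (2.90-fold, adjusted p = 3.73e-05). Efnb2, an ephrin ligand of arteries, and Sema7a rose 2.32-fold and 2.03-fold (adjusted p = 0.00033 and 0.000554), although the other probe set of Sema7a differed by 0.03 and did not pass. Of 56 guidance genes 4 were higher (7.14%, beside 2.9% of all genes) and 1 lower (1.79%, beside 1.26%). Irs1, the docking protein of the insulin and IGF receptors, rose 2.27-fold (adjusted p = 2.57e-05), among 3 higher (17.6%) and 1 lower (5.88%) of 17 IGF axis genes. Of 42 TGF-β and BMP pathway genes 5 were higher (11.9%) and 2 lower (4.76%), and Smad6 had the largest difference. Smad6 and Smad3 kept their calls without each array in turn, while Tgfbr1, Tgfbr2 and Tgfbr3 lost theirs without any 1 of the 4 arrays (adjusted p up to 0.153, 0.154 and 0.157) and Tgfb1 and Skil without 3 of them (adjusted p up to 0.105 and 0.0953). Mgp, matrix Gla protein, an inhibitor of calcification, rose 2.05-fold (adjusted p = 0.000626), while Phex, a bone endopeptidase, was 2.01-fold lower (adjusted p = 0.0032), a change that is understated since its induced arrays lay under the array median. Of 28 osteoblast and chondrocyte genes 2 were higher (7.14%) and 1 lower (3.57%).

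Contractile and actin genes had the most rises of any list by count, 7 of 36 (19.4%, beside 2.9% of all genes) with 1 fall and a median of 0.12. By share collagen chains (26.1%), oestrogen receptor targets (23.1%) and acute phase and complement genes (22.7%) stood above them. The contractile rises were small, between 0.41 for the smooth muscle actin Acta2 and 0.71 for the myosin light chain Myl9. Tpm1 and Cnn2 (0.58 and 0.57) kept their calls without each array in turn, while Acta2, Actg2, Tagln2, Myl9 and Amotl2 did not. Of 29 sterol and fatty acid genes 3 were higher (10.3%) and none lower, led by the fatty acid elongase Elovl6 (2.09-fold, adjusted p = 0.00154). Of 26 classical Runx targets of blood cells 1 was called (3.85%, beside 4.16% of all genes), the platelet integrin Itga2b at −0.45. Its call was lost without 3 of the 4 arrays. Interferon-stimulated genes gave 1 rise, Ifitm3 by 0.75, and 1 fall, Isg20, of 30 (3.33% each way, beside 2.9% and 1.26% of all genes). Of 47 RGS, prostaglandin and cyclic nucleotide genes 3 were higher (6.38%) and 4 lower (8.51%), and of 41 Wnt pathway genes 3 (7.32%) and 2 (4.88%). Of 40 sphingolipid genes 3 were higher (7.5%) and 1 lower (2.5%), and of 21 adipogenic genes 1 (4.76%) and 2 (9.52%). With lists of this size a share can rest on 1 gene, and the lists were chosen with earlier results known, so shares above those of all genes are a description only. Of 13 oestrogen receptor target genes 3 were higher (23.1%), Esr1, Ccn5 and the corepressor gene Nrip1 by 0.59. Esr1 was read above in search of the inserted gene, and its line difference was 2.45 without ligand. Ccn5 stood at 0.14, 2.06 and 1.49 in the Runx1, Runx2 and Runx3 lines, and at 1.69 in the human RUNX1 line (1 array). The 5 other probe sets of Nrip1 lay between −0.16 and 0.16 and did not pass, and its call was lost without any 1 of the 4 arrays.

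**Figure D4:**
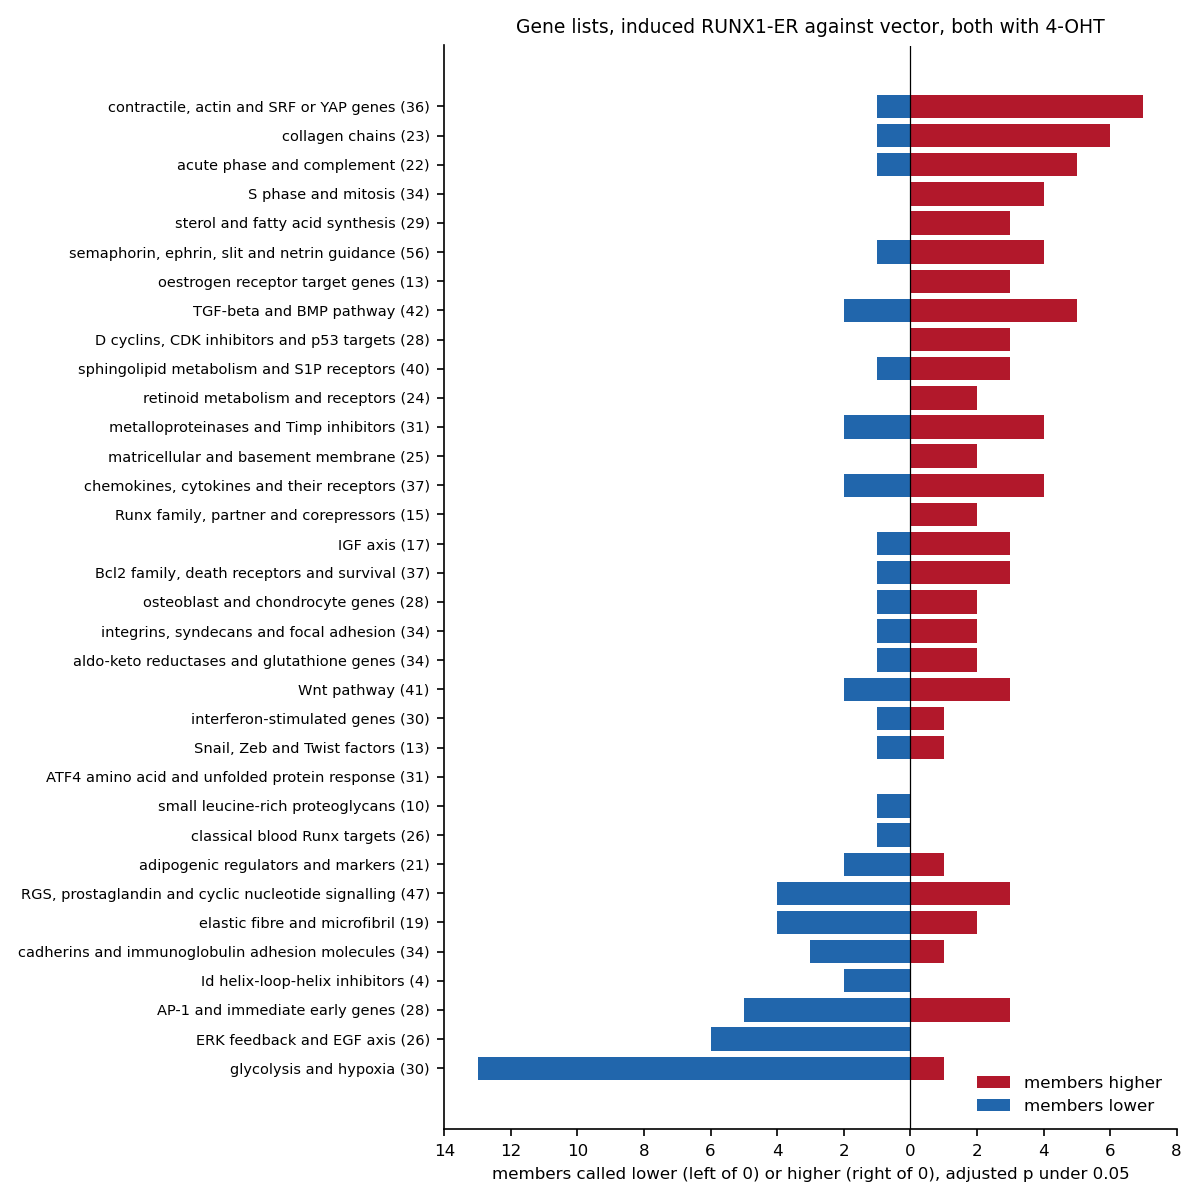
Number of members called higher (red, right of 0) or lower (blue, left of 0) at an adjusted p under 0.05 in each of 34 gene lists, with the number of measured members in brackets. Glycolysis and hypoxia genes have 13 lower members, and contractile genes have 7 and collagen chains 6 higher ones.

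How much of this already separated the lines without ligand was asked on 4 other arrays. Uninduced RUNX1-ER differed from vector in 8 genes (0.044%), 6 higher (0.033%) and 2 lower (0.011%), beside 1447 at an unadjusted p under 0.05. The 8 were Esr1 (2.45), Clba1, Vash2, Fnip2, Fam110b and Mvd, which were higher, and Id1 (−1.18) and Phex (−1.23), which were lower. With ligand on both sides only Esr1 and Phex of these were called, each in the same direction as without, and Phex read 3.38 and 3.36 in induced RUNX1-ER, against 4.31 and 4.44 in vector cells with 4-OHT. Small differences ran the same way more widely. Of the 528 genes higher with ligand, 356 (67.4%) were higher in uninduced RUNX1-ER too, beside 43.9% of all genes, with a median of 0.08. Of the 229 lower genes, 171 (74.7%) were lower, beside 56.1% of all, with a median of −0.10.

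The line difference with ligand was then tested against the same difference without it. It was larger or smaller in 110 genes (0.605%), 89 in the upward (0.489%) and 21 in the downward direction (0.115%). Each of the 15 largest rises passed this test, Rdh10 by 2.90 and Pde8a by 2.75 (limma adjusted p = 2.17e-06 for both), Snai1 by 2.95 and Emilin1 by 1.38. Among the 15 largest falls 5 passed, Rgs2 (−0.96), Bnip3 (−0.94), Ero1a (−1.20), Egln1 (−1.08) and Cebpd (−1.07). These rises and falls were picked by their difference with ligand, which is part of this test, so the choice itself favoured passing. The falls were also smaller with ligand (up to −1.62 for Rgs2) than the rises (at least 1.65, Emilin1), so the 2 counts cannot be compared. Car9 (−1.33, adjusted p = 0.085) and Id2 (−0.69, adjusted p = 0.0646) did not pass, and Id1 passed upwards (1.03, adjusted p = 0.0133) with a line difference of −0.15 with ligand and −1.18 without it. Egr1, Aspn and Phlda1 stood at −1.16, −1.10 and −0.84 without ligand, beside −1.27, −1.27 and −0.81 with it. Of the 30 hypoxia genes 3 passed, all downwards. Within a line, 4-OHT changed 349 genes in RUNX1-ER cells (1.92%), 183 higher (1.01%) and 166 lower (0.912%), and none in vector cells in limma, with 1225 there at an unadjusted p under 0.05. Both comparisons share arrays with those above.

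The lines with constitutive Runx genes were set beside induced RUNX1-ER on arrays that the 2 comparisons do not share. The constitutive lines share the vector arrays without 4-OHT among themselves. With the Runx3 line (1705 genes called, 9.37%, of which 3.97% higher and 5.4% lower) 379 calls ran in the same direction and 19 in the opposite one. They made up 41.3% of the genes higher with RUNX1-ER and 70.3% of those lower, and 30.2% and 16.4% of the Runx3 line's higher and lower genes. With the Runx2 line (468 genes, 2.57%, of which 0.923% higher and 1.65% lower) 196 calls were shared and 4 opposed. They made up 16.5% of the genes higher and 47.6% of those lower with RUNX1-ER, and 51.8% and 36.3% of the line's own. With the Runx1 line (309 genes, 1.7%, of which 0.973% higher and 0.726% lower) 112 were shared and 12 opposed. They were 11.9% and 21.4% of the RUNX1-ER lists and 35.6% and 37.1% of the line's. The single human RUNX1 array, which carries the same gene as the fusion, shared 195 and opposed 51 (1333 genes, 7.33%, of which 2.19% higher and 5.14% lower). They were 18% and 43.7% of the RUNX1-ER lists and 23.9% and 10.7% of its own.

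Over 8048 genes with a mean above 5 log2 units the differences correlated with those of RUNX1-ER at r = 0.573 in the Runx3 line, 0.497 in Runx2, 0.302 in human RUNX1 and 0.258 in Runx1, and at 0.299 in uninduced RUNX1-ER. These values run across genes, which are not replicates. The lines also differ in how many genes were called, which sets how many can be shared.

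**Figure D5:**
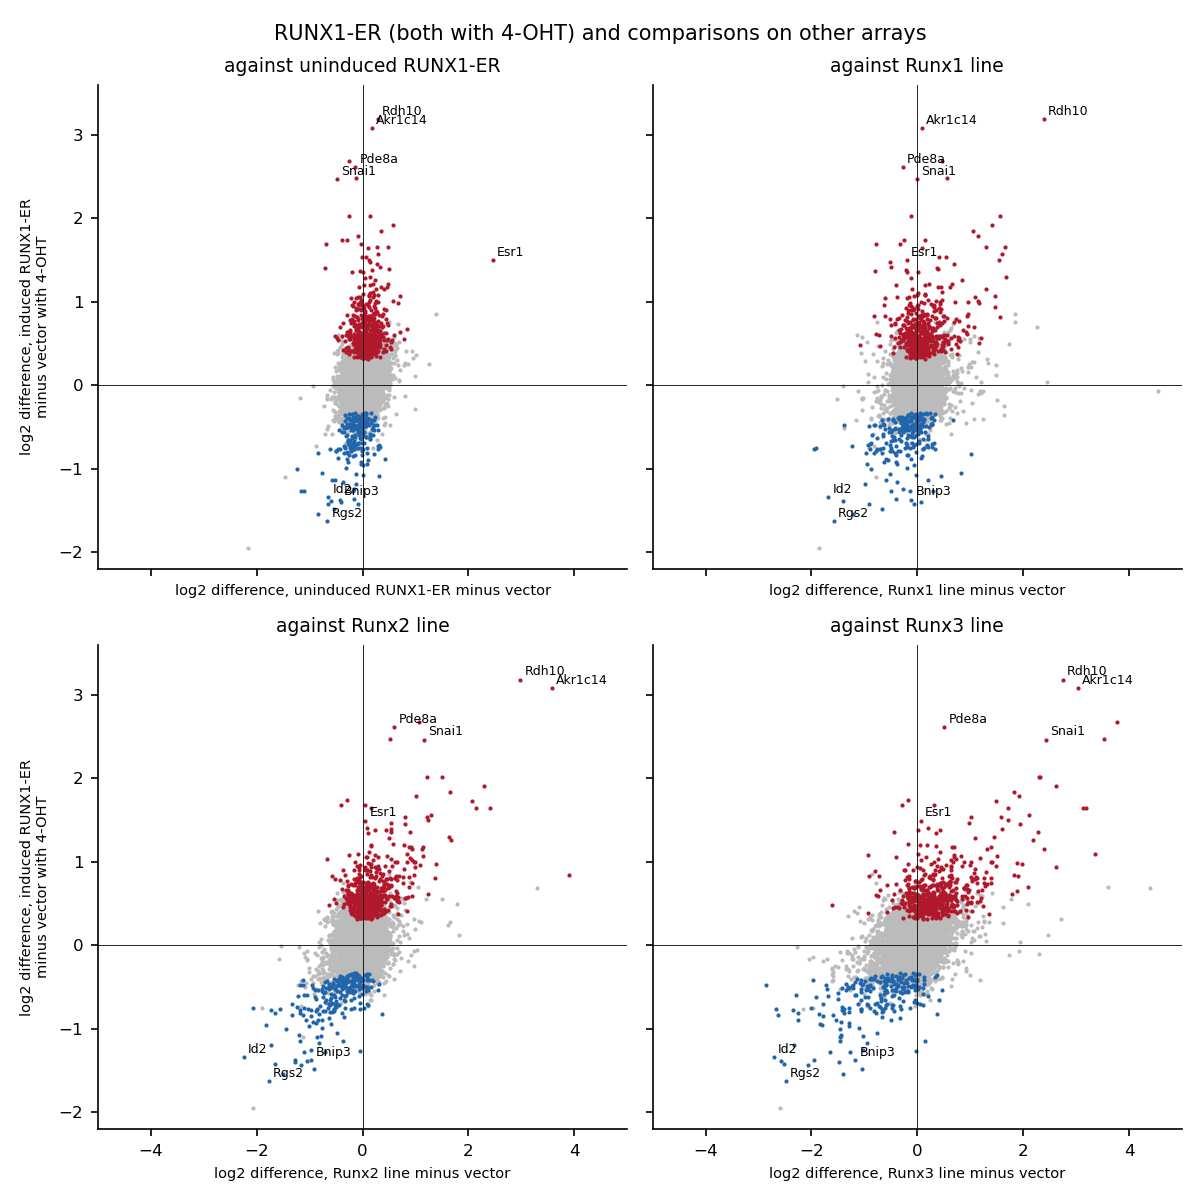
Log2 difference between induced RUNX1-ER and vector with 4-OHT (y axis) against the log2 difference of uninduced RUNX1-ER, the Runx1, the Runx2 and the Runx3 line from vector (x axes), with 18193 genes as points coloured by the call with RUNX1-ER (red higher, blue lower). Rdh10 lies far right in all 3 mouse lines (2.39, 2.98 and 2.75), while Pde8a stands at −0.27, 0.60 and 0.51.

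Genes differed in which lines shared the change. Rdh10 rose with RUNX1-ER by 3.18, and by 2.39 in the Runx1, 2.98 in the Runx2 and 2.75 in the Runx3 line. Akr1c14, at 3.08, stood at 0.09 in the Runx1 line, 3.57 in Runx2 and 3.03 in Runx3. Snai1, at 2.47, stood at 0.00, 1.16 and 2.43, and Timp4, at 2.48, at 0.56, 0.52 and 3.54 in the same order. Bnip3 fell by 1.37 on the log2 scale with RUNX1-ER and stood at −0.11, −0.97 and −1.17. The human RUNX1 line (1 array) stood at 3.32 for Rdh10, 2.9995 for Akr1c14, 0.95 for Snai1, 2.66 for Timp4 and −0.06 for Bnip3. Some strong rises did not pass in any of the mouse lines. Smad6 (1.69) stood at −0.32, 0.04 and 0.32, Tbccd1 (1.74) at −0.25, −0.30 and −0.18, Nr4a2 (1.68) at −0.78, −0.40 and −0.29, and Ccnd1 (1.09) at 0.14, −0.09 and 0.01. On the single human RUNX1 array Smad6, Tbccd1, Nr4a2 and Ccnd1 stood at 0.06, −0.05, −0.57 and 0.07.

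The difference between the RUNX1-ER effect and that of the mouse Runx1 line was tested, with the limit that the Runx1 line was set against vector without 4-OHT. It passed in 256 genes (1.41%), 165 upwards (0.907%) and 91 downwards (0.5%). The largest upward differences were those of Akr1c14 (2.99, limma adjusted p = 0.000421), Pde8a (2.88), Nr4a2 (2.46), Snai1 (2.46) and Anxa8 (2.20). The largest downward ones were Runx1 itself (−4.63), which the Runx1 line carries as a transgene, Cp, the ferroxidase ceruloplasmin (−2.41), S100a16 (−1.98), Glipr1 (−1.88) and Hbegf (−1.87). Cp read 4.21 and 3.91 in induced RUNX1-ER, against 3.71 and 4.35 in vector cells with 4-OHT, with overlapping arrays, where the Runx1 line had it 2.45 above vector. Hbegf was lower with RUNX1-ER (−1.05) and stood at 0.82 in the Runx1 line. Of the hypoxia genes Bnip3 (−1.26), Egln1 (−0.99), Car9 (−1.36) and Ndrg1 (−0.88) were lower relative to the Runx1 line. Falls in this list were not particular to RUNX1-ER. Of its 30 genes 3, 13 and 18 were lower in the Runx1, Runx2 and Runx3 lines, beside 0.726%, 1.65% and 5.4% of all genes. In the same order 2, 1 and 1 were higher, and the medians were −0.06, −0.42 and −0.47. The same test against the Runx2 line passed in 94 genes (0.517%) and against the Runx3 line in 415 (2.28%), 74 (0.407%) and 320 (1.76%) of them upwards and 20 (0.11%) and 95 (0.522%) downwards.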

How the data were processed

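Total RNA from NIH3T3 lines was hybridised to Affymetrix mouse arrays, 15 in 8 groups. The deposited log2 values were made by the authors with Robust Multichip Average (RMA) in the Bioconductor package affy from GCOS scans, per the labels' protocols. Versions and the probe set definitions were not given in the sources used here. This method compresses differences between dim signals, so folds from or to a low level are understated.

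Of 45101 probe sets, 34945 had 1 gene symbol, 932 several and 9160 none, and 64 were controls. The brightest probe set stood for each of 18193 genes, of which 18032 were matched to RefSeq by Entrez identifier. limma 3.58.1 (R 4.3.3; lmFit, eBayes) was fitted with 1 coefficient per group over all 15 arrays (7 residual and 5.649 prior degrees of freedom). P-values were adjusted by Benjamini-Hochberg over all genes in each of 12 comparisons and called under 0.05. All adjusted p-values in the text are from this fit or from the same fit without the array named. The fit was run on simulated data drawn from its own variance model with equal spread in all groups. That run checks the code and cannot show whether the model suits these arrays. Figures were drawn with matplotlib 3.10.9.

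Named genes were the 15 largest called rises and 15 largest called falls whose arrays do not overlap, up to 4 called members of each of 34 lists, the largest differences from the uninduced and the Runx1 line effects, and Runx1, Runx3, Cbfb and Esr1. Clone and predicted symbols were skipped. Further list members are named where a list is described, and were chosen after their values were seen. Members and lists were chosen with earlier results of these data known. Comparisons with the Runx2 and Runx3 line effects, the search of all listed promoters and the alternatives for the hypoxia list were added after seeing the data. Alternatives were another scaling, the mean of a gene's probe sets, a filter on dim genes, other variance models, a pooled vector control, a replicate block, fewer arrays and leaving out each array. Replicate numbers did not pair the arrays: deviations of same-numbered induced RUNX1-ER and vector arrays with 4-OHT correlated at 0.0426, and of uninduced RUNX1-ER and vector at −0.0346.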

Additional observations from a re-analysis of the deposited data

Results flagged for a closer look

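The RUNX1-ER line effect differed with and without 4-OHT in these named genes, as the difference of the 2 log2 differences in limma (adjusted p from 2.17e-06 to 0.0496). Genes named for their difference with ligand were favoured by that choice, since that difference is part of this test. It was more positive with ligand for Rdh10 (2.9), Akr1c14 (2.9), Anxa8 (2.94), Pde8a (2.75), Timp4 (2.6), Snai1 (2.95), Mfap5 (1.88), Ugcg (1.35), Wwp2 (1.5), Ccl2 (1.88), Tbccd1 (2.04), Ccn5 (2.12), Smad6 (1.72), Nr4a2 (2.38), Emilin1 (1.38), Sdc1 (1.25), Itgb5 (1.03), Col5a1 (1.35), Col27a1 (0.875), Col6a2 (0.991), Ccn4 (1.54), Adamts4 (1.19), Timp1 (0.612), Casp6 (1.12), Ccnd1 (1.09), Cdkn2c (0.783), Ifitm3 (0.926), Ccl7 (1.37), Ccr7 (0.958), Il18 (1.15), Masp1 (0.94), Socs3 (0.836), Junb (2.1), Tcf7l1 (1.1), Mgp (1.17), Irs1 (0.72), Nrp2 (1.54), Efnb2 (1.02) and Sema7a (1.05). It was more negative with ligand for Rgs2 (−0.957), Bnip3 (−0.937), Ero1a (−1.2), Egln1 (−1.08), Cebpd (−1.07), Dusp1 (−1.41), Pde8b (−1.06) and Prrx1 (−0.907).

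The RUNX1-ER effect, with 4-OHT on both sides, differed from the effect of the mouse Runx1 line, set against vector without 4-OHT, in these named genes (limma adjusted p from 1.66e-08 to 0.0491). The same limit holds here for genes named for their difference with ligand. It was more positive for Rdh10 (0.789), Akr1c14 (2.99), Anxa8 (2.2), Pde8a (2.88), Timp4 (1.91), Snai1 (2.46), Tbccd1 (2), Ccn5 (1.59), Smad6 (2), Nr4a2 (2.46), Tle2 (1.44), Esr1 (1.7), Sdc1 (0.73), Col5a1 (1.35), Col6a2 (0.872), Col18a1 (1.17), Ccn4 (1.56), Bid (1.12), Casp6 (0.715), Ccnd1 (0.958), Cdkn2c (0.973), Mcm3 (0.707), Mcm7 (0.608), Elovl6 (1.12), Ccr7 (1.09), Il18 (0.568), Ptgfr (1.18), Fzd7 (0.797), Tcf7l1 (1.08), Mgp (1.64), Aebp1 (1.05) and Nrp2 (1.12). It was more negative for Car9 (−1.36), Tmem45a (−1.46), Bnip3 (−1.26), Ero1a (−0.974), Egln1 (−0.985), Ltbp3 (−0.749), Isg20 (−1.09), Dusp1 (−1.55), Hbegf (−1.87), Skil (−0.942), Runx1 (−4.63), Cp (−2.41), S100a16 (−1.98) and Glipr1 (−1.88). The lines are separate transductions, and the level of each Runx protein was not measured here.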

How the results depend on the processing

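No called named gene changed sign under any alternative run, while Cp and Glipr1, which were not called, did under some. Calls of induced RUNX1-ER against vector with 4-OHT (757, 528 higher, 229 lower) came to 1210, 834 and 373 with an intensity trend and robust variances, 307, 213 and 94 at an adjusted p under 0.01, and 160, 126 and 34 with the 4 arrays alone, and 800 were higher among genes with a mean above 5. Quantile normalization gave 52.8% higher. In the order trend, mean above 5 and 0.01, calls without ligand (8) came to 88, 32 and 2, the difference with and without ligand (110) to 332, 230 and 58, and the difference from the Runx1 line (256) to 625, 505 and 83. Shared calls at the trend and at 0.01 were 42 and 1 without ligand, 190 and 49 for Runx1, 333 and 110 for Runx2, 607 and 173 for Runx3 and 308 and 89 for human RUNX1. With means above 5 they were 16 without ligand and 583 for Runx3, and 4 without ligand with the mean of probe sets. Lower hypoxia genes came to 20 with the trend and 5 with the 4 arrays. All listed promoters gave 23.6% of higher and 26.4% of lower genes with a Runx core, beside 24.3% of all, which puts lower genes above all genes where 1 promoter a gene put them below (18.7% against 21.1%).

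Leaving out 1 array gave 287 to 726 calls, 182 to 505 higher and 76 to 221 lower, 0 to 4 without ligand, 55 to 127 for the difference with and without ligand and 95 to 240 from the Runx1 line. Shared calls were 0 to 6 without ligand, 56 to 86 for Runx1, 112 to 159 for Runx2, 184 to 322 for Runx3 and 100 to 152 for human RUNX1, and lower hypoxia genes 10 to 13. The lone array left in a group is assumed to vary like the other groups. Of 111 named genes called, 66 kept their call in all 4 cases. Of 145 list members called, 73 did. With the mean of probe sets 18 named genes were lost, Hbegf and Grb10 among them, and with the 4 arrays alone 56. With the replicate number as a block, calls came to 672, 10 without ligand, 102 and 232 for the 2 differences and 13 hypoxia genes. The causes of these changes were not tested, beyond fewer arrays or genes where the setting removes them. Signals under or near the array median limit the folds of Ccr7, Phex and Pde8a.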
